A study of Mus musculus with 16 samples.

Results

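Exposure of mouse mast cells to H2O2 could change the mRNA of the exosomes they release in the same way as that of the cells, or in a different way. The comparison described here is the H2O2 effect in exosomes minus the H2O2 effect in cells. It used all 16 arrays of the series, 4 in each of 4 groups. All groups came from MC/9, an established line of murine mast cells. Norm exo was RNA of exosomes isolated from cells in normal conditions, and oxi exo was RNA of exosomes from cells exposed to 125 µM H2O2 for 24 h. Norm cell and oxi cell were RNA of MC/9 cells labelled with the same pair of conditions. For each of 45037 probe sets, the log2 difference of H2O2 minus normal was taken within each of the 4 replicate numbers of exosomes and of cells, and the 4 exosome differences were set against the 4 cell differences. The mean of the first minus the mean of the second is called the interaction. A negative, or lower, interaction means that the signal dropped more, or increased less, in exosomes than in cells. It is a difference of changes and not of levels.

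The labels do not agree on the cells. The sample titles and the conditions give the cells as cells of normal and H2O2 conditions, and so does the study, whereas the sample descriptions and the design text call them cells that received exosomes. The values below hold under the first reading. Under the second, the cell difference is not the effect of H2O2 on the cells that released the exosomes. No label states whether the 4 arrays of a group came from separate cultures. The study describes its normal samples A and B, of cells and of exosomes, as from different cultures, and does not say so of the other samples. The p-values measure the spread between the arrays, part of which may be technical.

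Exosomes are small vesicles that form as buds inside endosomes and leave the cell when the endosome fuses with the plasma membrane. They carry proteins and RNA of the cell, mRNA included, and can hand these to other cells. H2O2 oxidises proteins, lipids and nucleic acids, and cells answer with antioxidant enzymes, chaperones and the p53 pathway. Mast cells are the granulated cells of allergic reactions, defined by the high-affinity IgE receptor and by granule proteases.

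The exosome arrays read far fewer transcripts than the cell arrays. Background was set on each array as the 95th percentile of 321 probe sets for 247 genes of other tissues, such as keratins and pregnancy-specific glycoproteins, and came to 213 to 224 signal units for norm exo, 233 to 256 for oxi exo, 18.1 to 18.8 for norm cell and 14.4 to 16.8 for oxi cell. Above it on all 4 arrays of the group were 2390 and 1470 probe sets of the norm exo and oxi exo arrays, beside 19009 and 19011 of the norm cell and oxi cell arrays. The 2229 probe sets (1413 genes) above background on all 4 arrays of at least 1 exosome group and at least 1 cell group are called comparable. Of 36 measured mast cell genes, 13 were above background on all norm exo arrays, 4 on all oxi exo, 30 on all norm cell and 31 on all oxi cell arrays. The stem cell factor receptor Kit, the receptor chain Fcer1g and the granule proteases Mcpt1, Mcpt2, Mcpt4, Tpsab1 and Tpsb2 were not comparable. Fcer1a, the alpha chain of the IgE receptor, was at 2005, 2122, 1153 and 1597 in norm exo and at 10334, 10098, 11780.0 and 11458 in norm cell.

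Where the H2O2 effect differed between the fractions, transcripts that both could read were nearly always lower in exosomes relative to cells. Among the 2229 comparable probe sets, 491 had a lower interaction at an adjusted p under 0.05 (22.0%) and 1 a higher one (0.0449%). Over all 45037 probe sets the counts were 662 (1.47%) and 42 (0.0933%). The median interaction of the comparable probe sets was -0.68, made of a median H2O2 effect of -0.70 in exosomes and -0.080 in cells. Cell changes went both ways, as the counts below show, so the small cell median does not mean that few transcripts changed there.

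Each fraction alone gave these counts. In exosomes 690 comparable probe sets fell (31.0%) and 3 rose (0.135%), and over all probe sets 764 fell (1.70%) and 14 rose (0.0311%). In cells 465 fell (20.9%) and 300 rose (13.5%), and over all probe sets 2483 fell (5.51%) and 1941 rose (4.31%). Of the 491 lower interactions, 245 fell in exosomes with no call in cells, 119 fell in both fractions but further in exosomes, and 88 fell in exosomes and rose in cells. Another 28 rose in cells with no call in exosomes, and 11 were called in neither fraction alone. No comparable probe set rose in both or rose in exosomes and fell in cells. The 4 exosome differences lay wholly below the 4 cell differences for 1100 comparable probe sets (49.3%) and wholly above for 148 (6.64%). Across the comparable probe sets the exosome change and the cell change had a Pearson r of -0.21, as a description only, since the probe sets share the same arrays.

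**Figure D1:**
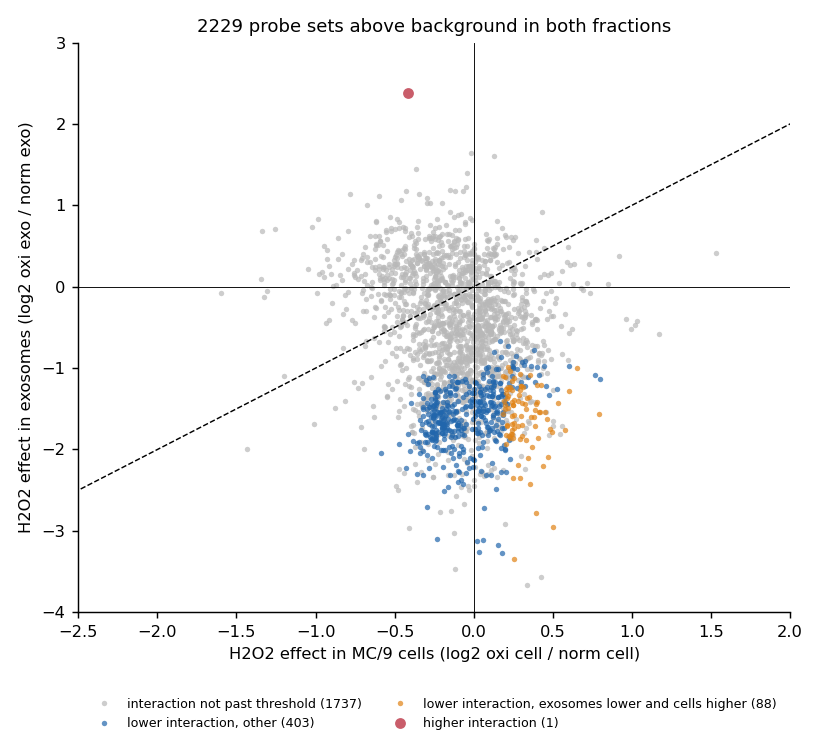
The H2O2 effect in exosomes (vertical axis, log2) is plotted against that in cells (horizontal axis, log2) for the 2229 comparable probe sets, 1 point each. The dashed line marks equal change. The 491 lower interactions lie below it, 88 of them (orange) with a fall in exosomes and a rise in cells, and 1 probe set (red) had a higher interaction.

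The filter on background favours some directions, since a probe set read in norm exo alone had to be lower in oxi exo. Of the comparable probe sets, 1071 passed through norm exo only, with 226 lower interactions and a median of -1.05, and 183 through oxi exo only, with 0 lower and 1 higher and a median of 0.71. The 975 above background in both exosome groups held 265 lower and 0 higher interactions, with a median of -0.44. The other 226 lower interactions therefore rest in part on oxi exo signals under background. Where probe sets were instead chosen by their mean over all 8 exosome arrays, which favours neither direction, 444 of 2390 were lower (18.6%) and 0 higher. Over these 2390, the median difference of each pair was -0.58, -0.40, -0.26 and -0.48 in exosomes and -0.083, -0.095, -0.055 and -0.066 in cells, and no exosome pair overlapped a cell pair.

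The interaction grew with brightness. In the dimmest quintile of comparable probe sets by mean signal over the 16 arrays, 2 of 446 were lower and the median interaction was 0.42. In the brightest quintile, 260 of 446 were lower (58.3%) and the median was -1.21, while the median standard error went from 0.42 to 0.24. Background itself moved in opposite directions, with a mean log2 change of 0.15 in exosomes and -0.22 in cells, and the median interaction over all 45037 probe sets was 0.25. The part of background and brightness in the counts was not tested. The arrays also cannot tell fewer vesicles with a transcript from fewer copies of it in each vesicle.

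The 8 genes of the most negative interaction that the rule named were above background on all norm exo and all cell arrays and not above it on any oxi exo array, so their exosome falls are bounds. Lmna encodes the nuclear lamins A and C. Its signals were 449, 513, 342 and 230.1 in norm exo and 144, 13.3, 97.1 and 9.31 in oxi exo, none of the latter above background, against 2708, 2547, 2875 and 2679.8 on the norm cell arrays and 3063, 3146, 3429.9 and 3271 on those of oxi cell. The 4 oxi cell arrays lay above all 4 of norm cell. Lmna passed the background filter through norm exo alone, so oxi exo signals under those of norm exo are no further support. The fitted interaction of -3.60 ± 0.72 (SE, adjusted p = 0.0308) rests on oxi exo signals under background. With oxi exo at background it was -0.86. Against background the exosome fall was at least 1.52-fold, beside a cell rise of 0.26 (adjusted p = 0.00745). On some norm exo arrays the margin was small, as for Lmna at 230.1 over a background of 215 and for Eif4h, at 227 and 218 on the norm exo arrays 3 and 4, over 216 and 215. For each of the 8 genes the bound was the geometric mean of norm exo over the mean background of oxi exo.

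Qars, the glutamine tRNA ligase, had 460.2, 337, 347 and 380.0 in norm exo and 127, 29.7, 14.99 and 101 in oxi exo, with an interaction of -3.45 ± 0.54 (SE, adjusted p = 0.011) and an exosome fall of at least 1.57-fold, and it rose by 0.50 in cells. The other 6 were Rnf10, a RING finger protein (interaction -3.45, exosome fall at least 1.73-fold), the chaperonin subunit Cct2 (-3.32, at least 1.73-fold), the translation initiation factor Eif4h (-3.30, at least 1.18-fold), Cox7a2l, a factor of respiratory supercomplexes (-3.17, at least 1.59-fold), Sec61a1, the channel of the endoplasmic reticulum translocon (-3.17, at least 1.95-fold), and Pafah2, a platelet-activating factor hydrolase (-3.15, at least 1.32-fold). The adjusted p of the 8 genes ranged from 0.00372 to 0.0308, and all of them rest on oxi exo signals under background. Signals under background have no order, so the rank among these 8 has no meaning beyond the bounds. Rnf10, Cct2 on this probe set, Eif4h, Cox7a2l and Pafah2 had cell changes between 0.018 and 0.18, none of them called.

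Several of these genes were also read by a brighter probe set. Cct2 on its brightest probe set had 1111, 993, 775 and 877 in norm exo and 407, 356, 273 and 171 in oxi exo, 3 of which were above background, and an interaction of -2.01 ± 0.24 (SE, adjusted p = 0.00443). The 3 comparable probe sets of Cct2 and of Sec61a1 all had negative interactions, from -3.32 to -1.67 and from -3.17 to -1.83. The 3 of Qars ranged from -3.45 to -0.82 with 1 called, and the 7 of Lasp1 from -2.78 to 0.64 with 4 called, so for these genes the probe sets disagreed on size, and for Lasp1 1 of 7 on direction.

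Of the 2229 comparable probe sets, 101 went down in exosomes and up in cells. In 88 of these, of 66 named genes, the interaction was called, with cell changes from 0.19 to 0.80. Of all comparable probe sets, 31.0% fell in exosomes and 13.5% rose in cells. Whether the 2 calls coincided more often than unrelated calls would was not tested. Of the 88, 55 were not above background on all oxi exo arrays, so their exosome falls have no exact size. The other 33 had exosome changes from -1.94 to -0.98. In all, 29 of the 66 genes belonged to a gene list used here. After Lmna, Qars and Sec61a1, the largest by the rule were Lasp1, an actin-binding protein (-2.78), the ribosome assembly factor Ngdn (-2.64), the vacuolar proton pump subunit Atp6v1c1 (-2.64), the RNA-binding protein Fam120a (-2.60) and the proteasome subunit Psmb4 (-2.56), with adjusted p from 0.00372 to 0.0226. On these probe sets none was above background in oxi exo, and their exosome falls were at least 1.42-fold (Psmb4) to at least 2.89-fold (Lasp1), while their cell rises ranged from 0.25 to 0.47.

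Such opposite changes were also seen in transcripts that oxi exo still carried. Ei24, a p53-induced gene of the endoplasmic reticulum, had 1769, 1581, 1093 and 1094 in norm exo and 634, 905, 682 and 538 in oxi exo. In cells it had 517, 463, 482 and 478 on the norm cell arrays and 779, 759.9, 739 and 770.4 on those of oxi cell. All oxi exo arrays lay under all norm exo arrays and all oxi cell arrays over all norm cell arrays, and the interaction was -1.65 ± 0.24 (SE, adjusted p = 0.00944). It did not pass with quantile normalization (-0.75, adjusted p = 0.248) or with centring (-0.97, adjusted p = 0.0597). Atp5a1, the alpha subunit of the mitochondrial ATP synthase, had 5492, 5579.6, 3722 and 4369.8 in norm exo and 1381, 2429, 1894 and 1023 in oxi exo, and 2285, 2261, 2506 and 2390.1 on the norm cell arrays and 2571, 2713, 2742 and 2719 on those of oxi cell. Its groups did not overlap in either fraction, and its interaction was -1.75 ± 0.26 (SE, adjusted p = 0.00931). With quantile normalization it was -0.53 and did not pass (adjusted p = 0.244), and with centring -1.07 (adjusted p = 0.0388).

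**Figure D2:**
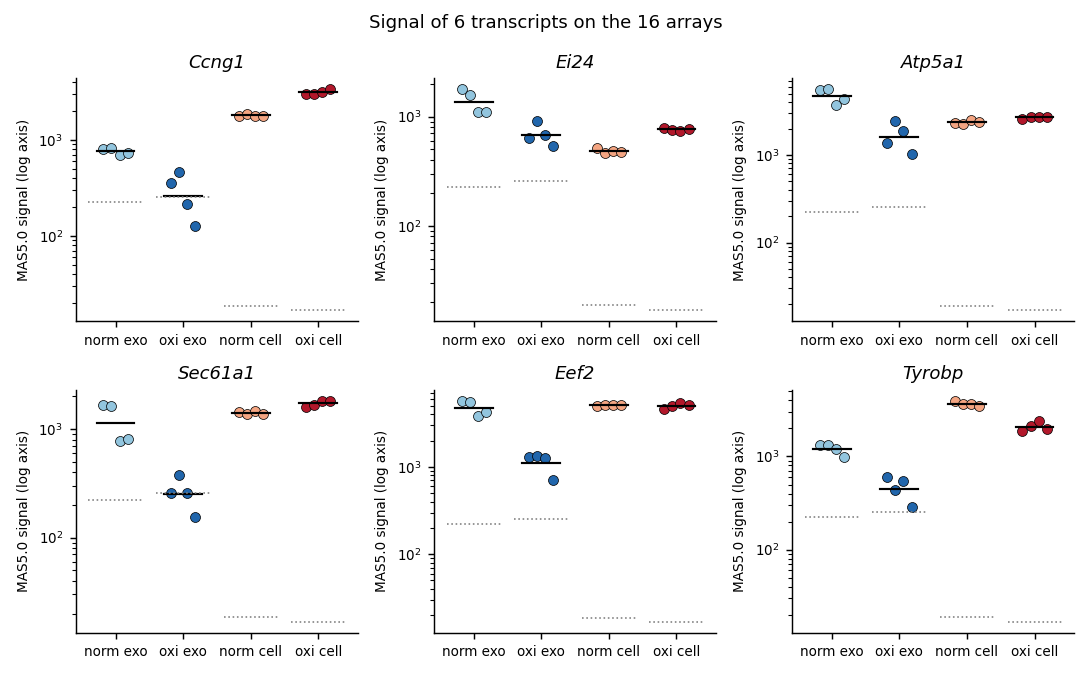
MAS5.0 signals (log axis) of 6 transcripts on each of the 16 arrays, by group; points are arrays in order of replicate number, bars the geometric mean of 4 and dotted lines the highest background of the group. Ccng1, Ei24, Atp5a1 and Sec61a1 went down in exosomes and up in cells, Eef2 fell in exosomes with a cell change of -0.024, and Tyrobp fell in both.

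The machinery of translation dropped in exosomes across most of its comparable members. Of 44 measured cytosolic ribosomal proteins, 38 were comparable, and 30 of these had a lower interaction and 0 a higher one, beside 22.0% of all comparable probe sets. Their median was -1.34, with a median of -1.56 in exosomes, where 36 fell, and -0.23 in cells, where 26 fell and 0 rose. Of all comparable probe sets, 31.0% fell in exosomes, and 20.9% fell and 13.5% rose in cells. The interactions of the 38 ranged from -1.95 to -0.18, led by Rpl4 (-1.95) and Rpl8 (-1.90) of the large subunit. Rpl7a (-0.18) and Rpl39 (-0.22) were at the other end and not called. These are bright transcripts. The brightest quintile held 35 of the 38, of which 30 were lower, beside 260 of all 446 in that quintile.

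Rps29, of the small subunit, had 16657, 18961, 11258 and 13475 in norm exo and 5930.0, 6565, 5541 and 3066 in oxi exo, against 11327, 11195, 11691 and 12303 on the norm cell arrays and 8816, 9672, 10491 and 10777 on those of oxi cell. Both fractions were lower under H2O2 without overlap, and the interaction was -1.31 ± 0.21 (SE, adjusted p = 0.0114). Rps28 and Rps18 gave -1.34 and -1.35 with adjusted p of 0.0108 and 0.0329. With quantile normalization or with arrays centred on the probe sets above background everywhere, 4 of the 30 kept the call in each case, and no further one of the 38 was called.

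Of 21 comparable translation factors, 11 had a lower interaction and 0 a higher one (median -1.05), beside 22.0% of all comparable probe sets. In the brightest quintile 6 of 10 were lower, beside the 58.3% given above, and 2 of the 11 kept the call with quantile normalization and 2 with centring. Eef2, which moves the ribosome along the mRNA, had 5726, 5606, 3804 and 4301 in norm exo and 1302, 1332, 1261 and 707 in oxi exo, and 4956, 5132, 5109 and 5126 on the norm cell arrays and 4556, 4968, 5366 and 5132 on those of oxi cell. The exosome groups were far apart and the cell groups overlapped, for an interaction of -2.08 ± 0.21 (SE, adjusted p = 0.00372), which also passed under quantile normalization and centring. Eef1a1, which brings tRNA to the ribosome, gave -1.45 ± 0.25 (SE, adjusted p = 0.0164) and Tpt1 -1.05 ± 0.21 (SE, adjusted p = 0.031), and of these Tpt1 turned to 0.086 with quantile normalization. Subunits of initiation factor eIF3 spread widely, from -2.32 for Eif3f and -2.22 for Eif3k to -1.02 for Eif3e and 0.036 for Eif3a, the latter pair not called. Eif5, at 0.43, and Eif2s2, at -0.19, were not called either.

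For genes of the mitochondrial respiratory chain and ATP synthase, the called changes were falls in exosomes and, with 1 exception, rises in cells. Of 38 comparable genes of oxidative phosphorylation (72 measured), 13 had a lower interaction and 0 a higher one, beside 22.0% lower of all comparable probe sets. Their median was -1.44. In exosomes 18 fell and 0 rose, and in cells 19 rose and 1 fell, so that the median change was -1.23 in exosomes and 0.19 in cells. Of all comparable probe sets, 31.0% fell and 0.135% rose in exosomes, and 20.9% fell and 13.5% rose in cells. With quantile normalization 3 of the 13 kept the call, and with centring 2. Still above background on all oxi exo arrays were 6 of the 13. In the brightest quintile 8 of 16 were lower, beside 58.3% of all comparable probe sets in that quintile. Of the list 6 fell in exosomes and rose in cells with the interaction called. Above background on all oxi exo arrays were the ATP synthase genes Atp5a1, Atp5g3 (-1.56) and Atp5c1 (-1.47). Ndufv1 of complex I (-1.71), Uqcrc2 of complex III (-1.52) and Cox6b1 of complex IV (-1.46) were not, so their exosome falls have no exact size. Cox7a2 on its brightest probe set had an interaction of -0.99 that did not pass (adjusted p = 0.0623), though 1 of its 2 comparable probe sets was called lower. Cycs, the electron carrier cytochrome c, stood apart with exosome differences of -0.17, 0.89, -0.44 and 0.19 and cell differences of 0.34, 0.37, 0.46 and 0.51. Its exosome pairs went both ways and overlapped the cell pairs, the interaction was -0.30 (95% interval -0.89 to 0.29), and it turned to 0.55 with quantile normalization and to 0.38 with centring.

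Of 9 comparable glycolytic genes, 3 had a lower interaction and 0 a higher one (median -1.23), beside 22.0% lower of all comparable probe sets. In the brightest quintile 3 of 6 were lower, beside 58.3% of all comparable probe sets in it. Of the 9 genes, 6 fell in exosomes and 5 fell in cells, with 0 rises in either. Of all comparable probe sets, 31.0% fell and 0.135% rose in exosomes, and 20.9% fell and 13.5% rose in cells. With centring 1 of the 3 kept the call, and with quantile normalization 0. Pkm, the pyruvate kinase, had exosome differences of -2.78, -2.03, -1.54 and -2.84 and cell differences of -0.48, -0.26, -0.26 and -0.43, and an interaction of -1.94 ± 0.28 (SE, adjusted p = 0.00874). Aldoa, the aldolase, followed with -1.56, and Ldha, the lactate dehydrogenase, with -1.23 (adjusted p = 0.0298). Pgk1 at -1.32 (adjusted p = 0.0541) and Pfkl at 0.077 did not pass on their brightest probe sets. Of the 3 comparable probe sets of Pgk1, 2 were called lower.

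Of the stress response lists, few genes were read in both fractions. Only 4 of 28 measured p53 target genes were comparable, and all 4 rose in cells, with a median of 0.67, while 2 fell in exosomes and 0 rose. Among all comparable probe sets the shares were 13.5% for rises in cells, 31.0% for falls in exosomes and 0.135% for rises in exosomes. Ccng1, a cyclin G that p53 switches on, had 801, 826, 694 and 727 in norm exo and 352, 459, 214 and 128 in oxi exo, 2 of them under background, against 1784, 1851, 1790.1 and 1770.5 on the norm cell arrays and 3025, 2981, 3146 and 3346 on those of oxi cell. The interaction was -2.35 ± 0.33 (SE, adjusted p = 0.0078), with a cell rise of 0.80 (adjusted p = 2.86e-05). Tigar, a regulator of sugar breakdown, rose in cells by 0.69 with exosome differences of 0.037, -0.12, -0.23 and 0.15, which lay around 0, and its interaction of -0.73 did not pass (adjusted p = 0.309). Zmat3 had -2.27 and did not pass (adjusted p = 0.113).

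Of the 10 comparable heat shock proteins and chaperones, 7 were subunits of the cytosolic TRiC ring, which folds actin and tubulin. In the list 5 were lower and 0 higher, beside 22.0% lower of all comparable probe sets. The 5 were Cct2, Tcp1 (-1.93), Cct5 (-1.92), Cct4 (-1.86) and Cct3 (-1.25), all TRiC subunits. In the brightest quintile 5 of 7 of the list were lower, beside 58.3% of all comparable probe sets in it. The TRiC subunits Cct7, at -1.31 (adjusted p = 0.0668), and Cct6a, at -0.58 (adjusted p = 0.305), were not called on their brightest probe sets. Another probe set of Cct6a was called, at -1.77 (adjusted p = 0.0205), with a fall in exosomes and a rise in cells. With quantile normalization 2 of the 5 kept the call, and with centring 3. Cct4 had exosome differences of -2.22, -1.63, -0.94 and -2.23 and cell differences of 0.071, -0.002, 0.14 and 0.21, with no overlap. Hspa8 and Hsp90aa1, general chaperones, gave -0.92 (adjusted p = 0.0828) and -0.031 and were not called on their brightest probe sets. Of the 3 comparable probe sets of Hspa8, 1 was called lower.

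Of 9 comparable antioxidant and NRF2 target genes, 5 had a lower interaction and 0 a higher one (median -1.38), beside 22.0% lower of all comparable probe sets. Sod1, the cytosolic superoxide dismutase, had exosome differences of -1.17, -1.13, -1.04 and -1.98 and cell differences of -0.30, 0.053, 0.48 and -0.041, and an interaction of -1.38 ± 0.27 (SE, adjusted p = 0.0276). Tkt and Pgd, enzymes of the pentose phosphate pathway, gave -1.64 and -1.99, the peroxiredoxin Prdx4 -1.60, and thioredoxin Txn1 -0.94 with a cell rise of 0.22. Of the 5 lower genes, 2 were still above background on all oxi exo arrays, Sod1 and Tkt. For the others, Pgd among them, the size of the exosome fall is not exact. In the brightest quintile 3 of 4 of the list were lower, beside 58.3% of all comparable probe sets in it. Fth1, the ferritin heavy chain, had -1.73 and did not pass (adjusted p = 0.0645), and neither did Txnip, whose cell fall was -1.43. None of the 5 was called with quantile normalization or with centring.

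Of 12 comparable genes of the unfolded protein and ATF4 response, 4 were lower and 0 higher, while 7 rose in cells and 1 fell. Of all comparable probe sets, 22.0% were lower, and in cells 13.5% rose and 20.9% fell. With quantile normalization 1 of the 4 kept the call, and with centring 1. Sec61a1 on its brightest probe set had 1676, 1632, 772 and 804 in norm exo and 259, 378, 258 and 156 in oxi exo, and 1423, 1388, 1481 and 1379 on the norm cell arrays and 1594, 1676, 1820.0 and 1800.4 on those of oxi cell. The interaction was -2.47 ± 0.26 (SE, adjusted p = 0.00372) and passed under every scaling tried. P4hb, a protein disulfide isomerase, followed with -1.45 ± 0.22 (SE, adjusted p = 0.0107), Ssr3 of the translocon with -1.45 and Ssr2 with -1.28. Phgdh, Asns and Wars, enzymes of amino acid metabolism and tRNA charging, rose in cells by 0.73, 0.33 and 0.55, with exosome changes of 0.28, -0.69 and -0.48 and interactions of -0.45, -1.02 and -1.04, none of them called.

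All 6 comparable proteasome genes of 36 measured rose in cells, with a median of 0.40, beside rises in 13.5% of all comparable probe sets. In exosomes 1 fell and 0 rose, beside 31.0% and 0.135% of all comparable probe sets. The interaction was lower for 2, Psmd13 (-2.09) and Psmb4 (-1.68 on its brightest probe set), beside 22.0% of all comparable probe sets. Psma5, Psmb3 and Psmd11, the brightest of the list, had interactions of -0.55, -1.17 and -0.91, none of which passed. Both called probe sets were under background on at least 1 oxi exo array. With quantile normalization both kept the call, and with centring neither.

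Transcripts of mast cell identity went the same way in exosomes. Of 13 comparable mast cell genes (36 measured), 7 had a lower interaction and 0 a higher one, beside 22.0% lower of all comparable probe sets. In the brightest quintile 4 of 6 were lower, beside 58.3% of all comparable probe sets in it. The median of the 13 was -1.20. In exosomes 9 fell, and in cells 8 fell and 1 rose. Of all comparable probe sets, 31.0% fell in exosomes, and 20.9% fell and 13.5% rose in cells. With quantile normalization 1 of the 7 kept the call, and with centring 1, and Fcer1a, Csf2rb and Cpa3 lost it under both. Still above background on all oxi exo arrays were 3 of the 7. Fcer1a had 709.8, 535, 376 and 279 in oxi exo, every array under the norm exo values given above, and 7817, 8895, 9604 and 9308 in oxi cell, and its interaction was -1.61 ± 0.23 (SE, adjusted p = 0.00867). Ms4a2, the beta chain of the same receptor, gave -1.70, and Csf2rb, a shared chain of cytokine receptors, -1.62 ± 0.29 (SE, adjusted p = 0.0195). Cpa3, the granule carboxypeptidase, gave -0.85 ± 0.18 (SE, adjusted p = 0.0455). Hdc, which makes histamine, was the exception in cells, where it rose by 0.58 beside a fitted exosome change of -1.76 and interaction of -2.34. Hdc was not above background on all oxi exo arrays, so the size of its exosome fall and of its interaction is not exact.

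Lysosomal, cytoskeletal and cell cycle genes showed the pattern in part, beside 22.0% lower of all comparable probe sets. Of 10 comparable lysosomal genes 5 were lower, with a median of -1.70, and 3 of the 5 kept the call with quantile normalization and 1 with centring. Laptm5, a lysosomal membrane protein of blood cells, had 4159, 3901, 2023 and 2568 in norm exo and 564, 695, 445 and 266 in oxi exo, and 4968, 5083, 5219.8 and 5299 on the norm cell arrays and 3691, 4166, 4644 and 4325 on those of oxi cell. Its interaction was -2.41 ± 0.24 (SE, adjusted p = 0.00372), but a further comparable probe set of Laptm5 gave 0.037. Grn, the progranulin precursor, gave -1.55 (adjusted p = 0.0198), and the protease Ctsd, at -1.02, did not pass.

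Of 24 comparable genes of the cytoskeleton list, which holds actin and tubulin genes and, with them, Vim and Lmna of the intermediate filaments, 13 were lower, and 6 of the 13 were still above background on all oxi exo arrays. In the brightest quintile 7 of 14 were lower, beside 58.3% of all comparable probe sets in it. With quantile normalization 3 of the 13 kept the call, and with centring 1. Tubb5, a beta tubulin, gave -1.45, Vim, the vimentin, -1.51, and Actn4, an actinin, -0.15, the latter not called. Actg1, the cytoplasmic gamma actin, had cell differences of -0.039, 0.035, 0.042 and 0.047 and exosome differences of -1.62, -1.30, -1.05 and -2.29, and an interaction of -1.58 ± 0.24 (SE, adjusted p = 0.0107). Actb, the beta actin, had -0.82 and did not pass (adjusted p = 0.188), like the thymosin Tmsb10 at -0.58. Of 8 comparable cell cycle genes 3 were lower, of which 0 kept the call with quantile normalization and 1 with centring. The 3 were Ccnd2, the cyclin D2 that drives entry into the cycle (-1.43 ± 0.17 (SE, adjusted p = 0.00402)), Mcm7 of the replicative helicase (-1.19) and Rfc4 of the clamp loader (-1.40). Of the 6 comparable probe sets of Ccnd2, 3 were called lower, and their interactions ranged from -1.43 to 0.091. Of the 3 of Mcm7, 1 was called lower.

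**Figure D3:**
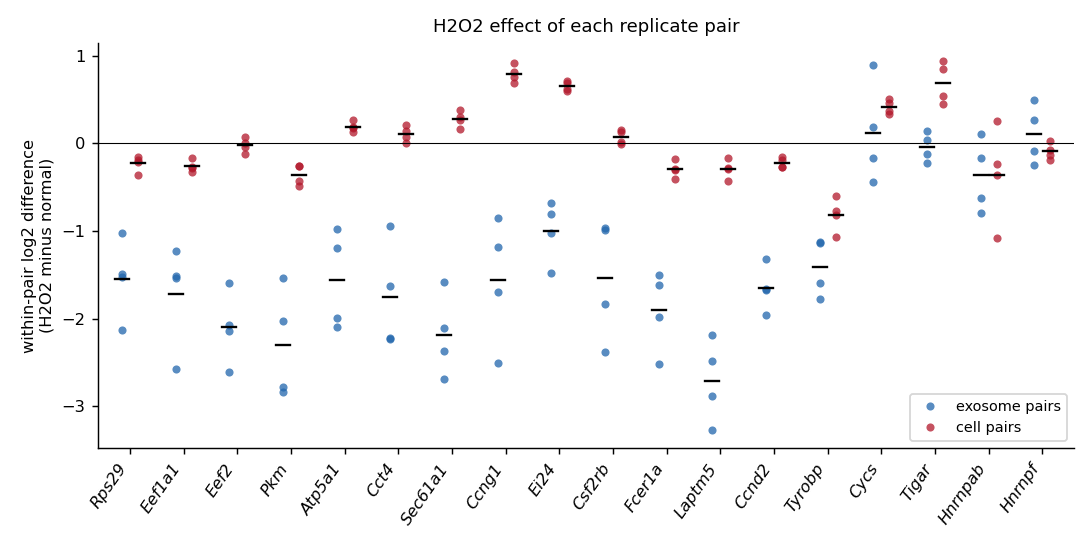
Within-pair log2 differences, H2O2 minus normal, of 18 genes in the 4 exosome pairs (blue) and the 4 cell pairs (red); bars are means of 4. From Rps29 to Ccnd2 the exosome pairs lie under the cell pairs, at Cycs, Hnrnpab and Hnrnpf they overlap, and at Tyrobp and Tigar they lie closely under the cell pairs without passing the test.

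Some lists held calls at a share near the 22.0% of all comparable probe sets. Of 6 comparable genes of exosome formation and endosomal sorting, 1 was lower, Chmp4b of the ESCRT-III complex (-1.47 ± 0.23 (SE, adjusted p = 0.0107)), and the median of -0.52 lay above the -0.68 of all comparable probe sets. Sdcbp, the adaptor syntenin, had an interaction of -0.39 (95% interval -0.89 to 0.12), and Itgb7, an integrin, -0.81 (95% interval -1.33 to -0.29), with adjusted p of 0.509 and 0.148. Of 12 comparable splicing factors and hnRNP proteins 2 were lower, Prpf19 (-1.44) and Pcbp1 (-1.40), with a median of -0.41. Hnrnpab, among the brightest exosome transcripts, had 13140.3, 10178, 7629.8 and 7705 in norm exo and 7598, 10991, 6792 and 5016 in oxi exo. These ranges overlapped, and the interaction was -0.009 (95% interval -0.64 to 0.62), which turned positive under quantile normalization (0.75) and centring (0.67). Hnrnpf had 0.20 (95% interval -0.25 to 0.65), which turned to -0.070 when scaled to spiked controls. None of 5 comparable mitochondrial ribosomal proteins was called, with interactions from -1.37 to 0.47.

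Of the comparable probe sets, 204 fell in both fractions, and in 119 of these the interaction was called. The 6 genes that the rule took as changed alike had the largest smaller change. Scd2, a fatty acid desaturase, was under background on all oxi exo arrays, so that its exosome fall was at least 1.58-fold, and it had cell differences of -0.95, -0.80, -1.12 and -1.17. The fitted interaction was -0.68 (95% interval -1.48 to 0.12), but with oxi exo at background it was 0.35, so its sign is not settled on this probe set. Of the 2 comparable probe sets of Scd2, the other was called lower, at -1.46. Tyrobp, a signalling adaptor of myeloid cells, had 1325, 1325, 1206 and 979 in norm exo and 605, 438, 548 and 286 in oxi exo, and 3958, 3618, 3628 and 3467 on the norm cell arrays and 1893, 2113, 2392 and 1966 on those of oxi cell, and fell in both, with an interaction of -0.59 (95% interval -1.09 to -0.10). Rnf166, Otud3, Trim14 and AI467606, above background on 1, 2, 3 and 4 oxi exo arrays, had interactions of -0.48, -0.46, -0.98 and -0.79, with 95% intervals of -1.20 to 0.25, -1.22 to 0.30, -1.58 to -0.37 and -1.35 to -0.22. On these probe sets none was called, yet intervals this wide, which for 3 of the 6 exclude 0 before adjustment, do not show equal change.

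Few transcripts were called as increased in exosomes relative to cells at the adjusted threshold. At an unadjusted limma p under 0.05, 132 comparable probe sets were higher and 1121 lower. Over all probe sets these counts were 3002 and 2950. The rule for the most positive interactions named no gene, since the 1 comparable probe set called higher, 1443083_at, carries no symbol here. Its signals were 70.8, 35.3, 106 and 123 in norm exo and 314, 384, 328 and 606 in oxi exo, against 37.8, 44.2, 38.02 and 27.2 on the norm cell arrays and 27.2, 20.9, 27.7 and 34.8 on those of oxi cell, with a fitted interaction of 2.80 ± 0.54 (SE, adjusted p = 0.0265). No norm exo array was above background, so the size of that interaction is not measured, and the exosome rise was at least 1.81-fold. Next by p, and named after their values were seen, came Camk2n1, an inhibitor of CaM kinase II, at 1.26 (adjusted p = 0.052). Among the first 6 by p, the unnamed probe set 1452433_at was bright in exosomes, with 5539, 5319, 7618 and 8149.9 in norm exo and 8600.3, 8244, 9095 and 9526 in oxi exo, and 161, 141, 184 and 160.4 on the norm cell arrays and 97.7, 106, 101 and 139.9 on those of oxi cell. Its interaction was 0.99 and did not pass (adjusted p = 0.0727).

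The genes that the study listed as most changed in exosomes were chosen on these arrays, so their direction is not independent evidence. Of 20 measured genes of its repressed list, all 20 were comparable, 9 were lower and 0 higher, and the median was -1.75. Of all comparable probe sets, 22.0% were lower, with a median of -0.68. Only 6 of the 20 were above background on all oxi exo arrays. Of 17 measured genes of its induced list, 1 was comparable, Yipf7, with an interaction of 1.33 that did not pass (adjusted p = 0.172).

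**Figure D4:**
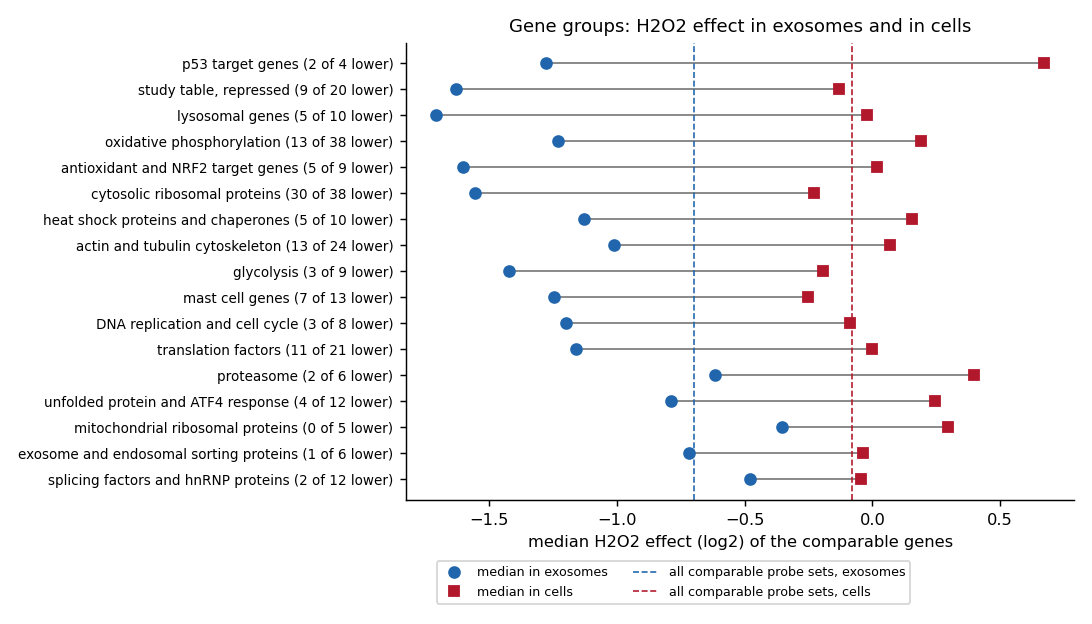
Median H2O2 effect (log2) of the comparable genes of each list with at least 4 of them, in exosomes (blue circles) and in cells (red squares), 1 probe set per gene; dashed lines are the medians of all comparable probe sets, -0.70 and -0.080. The counts give lower interactions out of comparable genes. The wide gaps at p53 targets, oxidative phosphorylation and the proteasome hold cell medians above 0.

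Markers of other blood and tissue cells were almost never read in both fractions. Of 13 measured B lymphocyte, 12 erythroid, 19 macrophage and neutrophil and 18 fibroblast and endothelium markers, 0 were comparable. Of 15 T lymphocyte markers 1 was, Zap70, whose signals in norm cell, 5.996, 19.9, 65.5 and 7.34, straddled background, and whose interaction of -1.12 did not pass (adjusted p = 0.624). Among 247 background genes 3 were comparable and none was called. They were Psg28, Krt81 and Lor, with interactions of 0.34, 0.56 and 0.073. Lor turned to -0.34 with quantile normalization and to -0.20 when scaled to spiked controls.

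The size of the difference rested on how exosome arrays were made comparable with one another, which the arrays alone do not settle. Comparable probe sets held 34.8 to 41.8% of all signal for norm exo, 22.4 to 28.4% for oxi exo, 45.9 to 47.3% for norm cell and 43.3 to 46.4% for oxi cell. Each array is scaled to one mean over all probe sets, and the part of this in the interaction was not tested. The spiked controls, which are added at hybridization, read 15690 to 19553 in norm exo and 15398 to 19833 in oxi exo. In norm cell they read 1007 to 1184 and in oxi cell 825 to 963. With these controls as the scale, 566 comparable probe sets were lower and 1 higher. With quantile normalization 118 were lower and 14 higher, so that 89.4% of calls were lower in place of 99.8%. With arrays centred on the 934 probe sets above background on all 16 arrays, which sets the bright transcripts' own median to 0, 79 were lower and 46 higher (63.2% lower), and the median of all probe sets moved from 0.25 to 0.93. Of the 491, 79 kept the call under centring and 110 under quantile normalization.

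**Figure D5:**
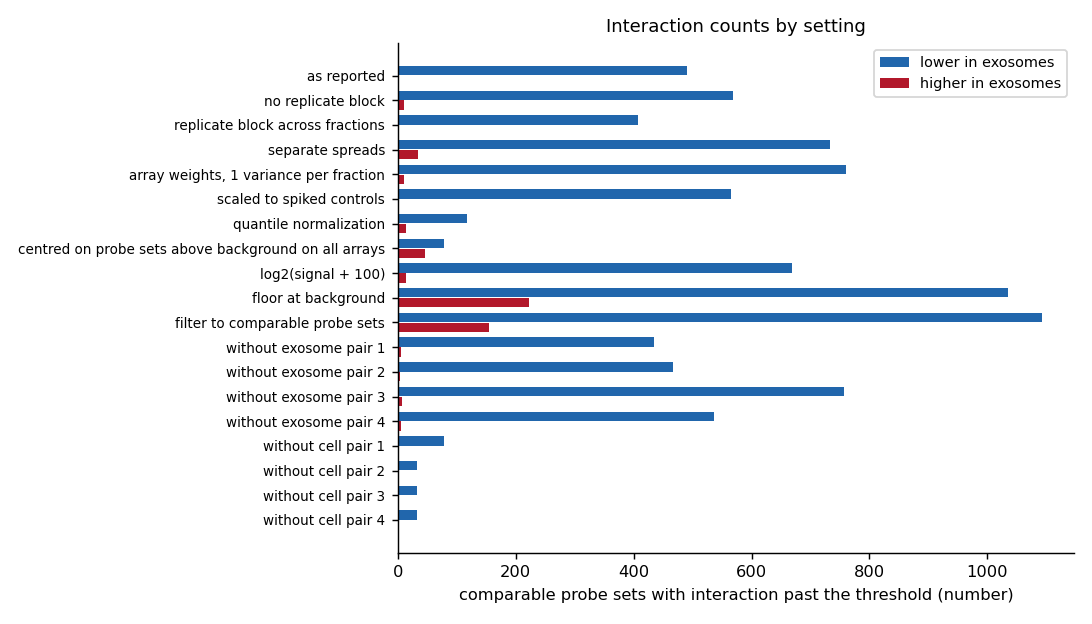
Number of comparable probe sets with a lower (blue) and a higher (red) interaction at an adjusted p under 0.05, under each setting; the top bars are the counts reported, 491 and 1. Quantile normalization and centring lowered the first, to 118 and 79, and so did leaving out any cell pair, to between 32 and 78.

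Leaving out 1 pair moved the counts as well. Without exosome pair 3 there were 757 lower interactions, and without exosome pairs 1, 2 and 4 there were 435, 467 and 537. Without cell pairs 1, 2, 3 and 4 there were 78, 32, 33 and 33, although the cell pairs differed little, with a median SD of 0.13 among the 4 cell differences of a comparable probe set beside 0.49 among the exosome differences. These fits use 1 spread for both fractions. With a spread for each fraction, an alternative chosen after the data were seen, 733 were lower and 34 higher, and 709 to 728 were lower without 1 cell pair.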

How the data were processed

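RNA of MC/9 exosomes and cells was hybridised to 16 Affymetrix arrays. The file holds the 45101 probe sets of Mouse 430 2.0, although the paper gives the type as 430A 2.0. The authors deposited signal intensities on a linear scale, made with MAS5.0, in GCOS 1.2 per the labels, each array scaled to a mean of 100 with 2% of probe sets trimmed at each end. Arrays have no read depth; their number limits precision.

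Of the probe sets, 64 controls were left out and 45037 tested (34945 with 1 gene symbol, 932 with several, 9160 with none, per the platform annotation). Log2 signals were subtracted within replicate numbers, since the study's methods name a paired test, and the 4 exosome and 4 cell differences entered limma (version 3.58.1, R version 4.3.3, lmFit, then eBayes with trend), adjusting p for 45037 tests by Benjamini and Hochberg, threshold 0.05. All adjusted p are from limma, and 95% intervals are unadjusted. Each fraction was also fitted alone. A paired t test across fractions, quantile normalization, scaling to 9 spiked-control probe sets, centring, log2(signal + 100), a floor at background, a filter, array weights, other blocks and leaving out each pair were tried. The fit was also run on simulated differences with known changes, as a check of the code and not of these results. Python 3.11.15 was used for tables.

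Among comparable probe sets with 1 symbol, and 1 per gene, the genes named are the 8 most negative and up to 8 most positive called interactions without overlap, up to 8 called in opposite directions, 6 called in the same direction, and from each list the 3 of the highest mean signal; a list's probe set per gene is its brightest. Other list members named were chosen after their values were seen. The comparison, gene lists and rules were chosen with earlier results of these data known.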

Additional observations from a re-analysis of the deposited data

Results flagged for a closer look

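The H2O2 effect differed between exosomes and cells by the limma interaction test for 662 probe sets that were lower and 42 that were higher in exosomes, and among comparable probe sets for 491 and 1. Of the 74 probe sets (71 genes) named, 41 passed that test, all with a lower interaction. The interactions on the log2 scale were Lmna -3.60, Qars -3.45, Rnf10 -3.45, Cct2 -3.32, Eif4h -3.30, Cox7a2l -3.17, Sec61a1 -3.17, Pafah2 -3.15, Lasp1 -2.78, Ngdn -2.64, Atp6v1c1 -2.64, Fam120a -2.60, Psmb4 -2.56, Rps29 -1.31, Rps28 -1.34, Rps18 -1.35, Eef1a1 -1.45, Tpt1 -1.05, Eef2 -2.08, Ldha -1.23, Pkm -1.94, Atp5a1 -1.75, Csf2rb -1.62, Fcer1a -1.61, Cpa3 -0.85, Ccng1 -2.35, Ei24 -1.65, Cct4 -1.86, Cct3 -1.25, Tkt -1.64, Sod1 -1.38, P4hb -1.45, Sec61a1 -2.47, Ccnd2 -1.43, Mcm7 -1.19, Actg1 -1.58, Chmp4b -1.47, Laptm5 -2.41, Grn -1.55, Lasp1 -2.10 and Cct2 -2.01. Sec61a1, Lasp1 and Cct2 are given for 2 probe sets each.

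In 10 of 148 sets of 4 within-pair differences, 1 pair lay apart from the other 3 by a gap beyond the 95% critical value of Dixon's test, which chance gives in about 1 in 20. The pair apart had a log2 difference of H2O2 minus normal as given for Ngdn in exosomes (-3.88), Psmb4 in exosomes (-3.78), AI467606 in exosomes (-0.75), Rps18 in cells (-0.29), Sod1 in exosomes (-1.98), Actg1 in cells (-0.039), Sdcbp in exosomes (0.097), Cct2 in exosomes (-2.36), Yipf7 in cells (-0.41) and Psg28 in exosomes (0.61).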

How the results depend on the processing

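Counts are given as lower and higher interactions over all probe sets, then over comparable ones, then comparable probe sets lower in exosomes and higher in cells. As reported they were 662 and 42, 491 and 1, and 88. They were 764 and 112, 568 and 11, and 99 with no replicate block, 530 and 13, 408 and 0, and 82 with the block across fractions, 1222 and 113, 761 and 11, and 101 with array weights, 239 and 20, 118 and 14, and 23 with quantile normalization, 836 and 25, 566 and 1, and 223 scaled to spiked controls, 104 and 157, 79 and 46, and 14 centred, 977 and 201, 669 and 14, and 114 with log2(signal + 100), 1250 and 2012, 1035 and 222, and 210 with a floor at background, and 1093 and 154, 1093 and 154, and 240 filtered to comparable probe sets. A paired t test without limma's pooling, of exosome against cell differences of the same replicate number, gave 0 throughout at the adjusted threshold. It had 1081 comparable and 4309 of all probe sets at an unadjusted p under 0.05. The study's own paired test compared normal with stress and not the fractions. Chosen after seeing the data, separate spreads gave 847 and 130, 733 and 34, and 101, and choice by mean exosome signal 444, 0 and 76. Without 1 pair they ranged over 42 to 1245, 0 to 170, 32 to 757, 0 to 8, 5 to 112, and with separate spreads over 517 to 857, 57 to 137, 481 to 735, 13 to 39, 50 to 117. Same-numbered arrays of 1 fraction deviated together with r of only -0.079 to 0.21, so the paired numbers rest on the study's test alone.

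Signs turned with centring for Tyrobp (0.083), Rnf166 (0.20), Otud3 (0.22), Cycs (0.38), Sec61b (0.091), Psma5 (0.13), Stmn1 (0.16), Tmsb10 (0.095), Sdcbp (0.29), Mrpl39 (0.029), Mrps33 (0.35) and Hnrnpab (0.67), with quantile normalization for Tpt1 (0.086), Cycs (0.55), Psma5 (0.10), Tmsb10 (0.16) and Hnrnpab (0.75) and Lor (-0.34), with spiked controls for Hnrnpf (-0.070) and Lor (-0.20), with log2(signal + 100) for Lor (-0.39) and Zap70 (0.10), and with a floor for Scd2 (0.35). Only Tpt1 of these had been called. Without 1 pair Hnrnpab ranged over -0.25 to 0.19 and Lor over -0.33 to 0.32. Of the 41 called, 26 lost the call with centring. With quantile normalization 21 lost it while keeping their sign, and Tpt1, whose sign turned, lost it as well. The cause was not tested.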
